A study of Mus musculus with 14 samples.

Results

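The 37 genes described here encode proteins of the lysosome and the vacuolar proton pump (V-ATPase) that acidifies it. Their mRNA was measured by RNA-seq in mouse embryonic fibroblasts (MEFs) with and without the lysine acetyltransferase Tip60, which the gene Kat5 encodes. The genes were chosen by name: 7 membrane and lipid transport proteins, 8 proteases, 8 glycosidases and saposins, 5 V0 and accessory subunits of V-ATPase, 7 V1 subunits and 2 transcription factors. All 37 were found by Entrez identifier among the 26270 gene identifiers of the count files, and all 37 passed the filter on low counts that left 14327 genes for testing.

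Each of the 14 libraries came from MEFs of E13.5 embryos kept in 3% O2, and 4-hydroxytamoxifen (4-OHT, 250 nM) was used to induce the deletion. Cells labelled Tip60+/+ served as control, with 3 libraries from day 3 and 4 from day 5. Tip60-/- cells, called KO here, likewise gave 3 and 4 libraries. The sources used here do not say whether control cells also received 4-OHT, which Cre line was used or which exons were removed. Control and KO each rest on 4 cell identifiers, read here as embryos. None occurs in both genotypes, several gave a library at each day, and replicates 1 and 2 of the day 3 controls carry the same one. All day 3 controls and day 5 control replicates 1, 2 and 3 carry litter label 1 (218-e1, 218-e2 and 218-e6). Day 5 control replicate 4 (219-e6-I) carries label 2. KO embryos carry labels 1 (159-e1), 2 (136-e2-II) and 3 (153-e3 and 153-e5). No leading number of an embryo name is shared between the genotypes. If that number marks the litter, litter and genotype cannot be told apart. The tests treat all libraries as independent, so their p-values measure the spread between these cultures. Male embryos gave 5 of the 7 KO libraries and 1 of the 7 controls, so sex and genotype are partly confounded. The female KO libraries, 1 at each day, share an embryo, so values from female libraries alone assume that a lone KO library varies like the other groups.

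Library depth ran from 2187168 counts (KO day 3 replicate 3) to 39203154 counts (KO day 3 replicate 2). Kat5, measured as a check of the labels (chromosome 19, 5603014 to 5611556, GRCm38.p6), lay at 17.3 to 21.1 CPM (read counts scaled to a common library size) in the 7 KO libraries and at 29.8 to 32.3 CPM in the 7 controls. Its log2 fold change was -0.68 ± 0.086 (SE) at day 3 (adjusted p = 2.02e-05) and -0.75 ± 0.071 at day 5 (adjusted p = 1.59e-06), and how many cells lost the gene cannot be read from a gene-level count. All 10 fibroblast markers passed the filter, with summed levels between 30902 and 55938 CPM per library. Day 5 control replicate 4, the single male control and the one from another litter, stood apart from the other day 5 controls: its summed level of 10 cartilage markers was 3391 CPM, against 423.5 to 681.5 CPM in the other 3 and 2307 to 4478 CPM in day 5 KO. Day 5 calls that change without this library are given with and without it. These are bulk samples, in which fewer cells of a type and less RNA per cell cannot be told apart.

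Lysosomes break down proteins, lipids and sugars with soluble hydrolases that work in acid. V-ATPase supplies the acid: its cytosolic V1 sector hydrolyses ATP and drives rotation of the membrane V0 sector, through which protons pass. The transcription factors TFEB and TFE3 bind palindromic E-boxes with the core CACGTG in the promoters of many lysosomal genes and raise their transcription when they enter the nucleus, from which active mTORC1 on the lysosome surface keeps them away. Fibroblasts use the same machinery to take up and degrade matrix proteins such as collagen.

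The E-box core was common in the promoters of these genes. In RefSeq windows of 300 bases (GRCm38.p6, 250 before and 50 after a start site), CACGTG, which reads the same on both strands, was found for 12 of the 30 members that have a window, or 40.0%, against 8.09% of the 27025 genes in the table. The longer palindrome TCACGTGA, which contains the core, was found for 7 of them (23.3%, against 1.12% of all genes). The stretches printed here come from the 6 members with a match before the start site and outside annotated exons (GENCODE vM21). They are shown to set members that were lower in KO at day 3 (Lamp1, Mcoln1, Gaa and Atp6v1a) beside members that carry the same core and were not called (Ctsd and Glb1). Capitals mark the match, the bases run 5′ to 3′ on the gene's strand, and all lie outside annotated genes except that of Atp6v1a, which lies in an annotated intron of Atp6v1a.
Lamp1, chr8:13159080-13159160, plus strand: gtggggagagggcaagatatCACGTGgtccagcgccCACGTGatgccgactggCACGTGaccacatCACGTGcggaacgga
Mcoln1, chr8:3500428-3500456, plus strand: ttagaaagggtcgcgcttgtCACGTGttc
Gaa, chr11:119267803-119267848, plus strand: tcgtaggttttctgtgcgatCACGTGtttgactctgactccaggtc
Atp6v1a, chr16:44139364-44139411, minus strand: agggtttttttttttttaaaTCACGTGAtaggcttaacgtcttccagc
Ctsd, chr7:142388047-142388077, minus strand: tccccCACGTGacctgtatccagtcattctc
Glb1, chr9:114401010-114401055, plus strand: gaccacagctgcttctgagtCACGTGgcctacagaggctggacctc

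Lamp1 holds 4 copies of the core in its stretch, from 55 to 9 bases before the start site. The stretches do not show every match. Left out are the longer TCACGTGA of Mcoln1, 38 bases before the start site, and that of Ctsd, which was not called, 91 bases before it. A match describes the letters of a window and shows no binding. Of the 12 members with the core, 8 were lower and 0 higher in KO at day 3 (median log2 fold change -0.54). Of the 18 with a window and no core, 10 were lower and 3 higher (median -0.35). At day 5 the counts were 4 lower and 1 higher with the core (median -0.11), and 10 lower and 1 higher without it (median -0.25). Of all 14327 tested genes 26.2% were lower and 24.6% higher at day 3, and 26.2% and 26.3% at day 5.

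The comparison at day 3 asked how lysosomal gene expression differs soon after the loss of Tip60. Of the 37 genes, 23 were lower and 4 higher in KO (73.0% called, against 50.9% of all tested genes; edgeR's quasi-likelihood test, p-values adjusted over all 14327 genes by the Benjamini-Hochberg method). Among all genes, 26.2% were called lower and 24.6% higher, so the excess among the members lay on the lower side. Their median log2 fold change was -0.49, against -0.0036 over all tested genes. KO libraries lay wholly below the controls for 24 members and wholly above for 4. Of all genes 57.8% were separated in this way, 29.6% below and 28.2% above. The summed level of the 37 genes was 11928 ± 976 CPM in control and 9034 ± 745 CPM in KO (SD, n = 3 each), and no KO library reached the lowest control library (11075 CPM). Without the shallow KO replicate 3 the counts were 23 lower and 3 higher.

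Markers of macrophages, cells rich in lysosomes, were also lower in KO at day 3. Of all tested genes 26.2% were lower and 24.6% higher at day 3, and 26.2% and 26.3% at day 5. Of 13 tested of 14 macrophage markers, 7 were lower and 0 higher in KO at day 3, and their summed level was 118.8 to 171.7 CPM in control and 78.4 to 109.8 CPM in KO. The highest of them was Lyz2, lysozyme, at means of 40.8 CPM in control and 23.7 CPM in KO, Ptprc (CD45) lay at 3.89 and 2.84 CPM, and Aif1 stayed under 1 CPM in all 14 libraries. At day 5, 4 were lower (Itgam, Cx3cr1, Mrc1 and C1qa, from -1.03 to -0.66) and 1 was higher (Cd68, 0.43, adjusted p = 0.0363), and their summed level overlapped between the groups, at 118.8 to 157.8 CPM in control and 95.8 to 166.4 CPM in KO. From day 3 to day 5 the mean macrophage sum went from 145.7 to 132.1 CPM in control and from 90.6 to 124.4 CPM in KO. The 37 genes went from 11928 to 8306 CPM in control and from 9034 to 7540.5 CPM in KO. Of 9 tested cartilage markers 8 were higher in KO at day 3 and 5 at day 5, and the list summed to 240.2 to 436.8 CPM in day 3 controls and to 3401 to 3944 CPM in day 3 KO, with Snorc at 0 in all libraries. Fibroblast markers summed to 30902 to 36084 CPM in day 3 controls and to 45577 to 55938 CPM in day 3 KO, and 5 of 10 were higher. Of the 6 epithelial markers, which summed to 130.4 to 204.7 CPM in control and to 38.3 to 79.8 CPM in KO at day 3, Epcam and Cldn7 stayed under 1 CPM throughout. Krt19 made up most of that sum and was lower (-1.72, adjusted p = 4.88e-05), whereas Cdh1 was higher (3.72, adjusted p = 0.000203). Of 6 endothelial markers 5 were tested and 1 was higher at day 3, with sums of 13.2 to 18.5 CPM in control and 18.0 to 21.7 CPM in KO. The part of these cells in the lysosomal result was not tested.

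**Figure D1:**
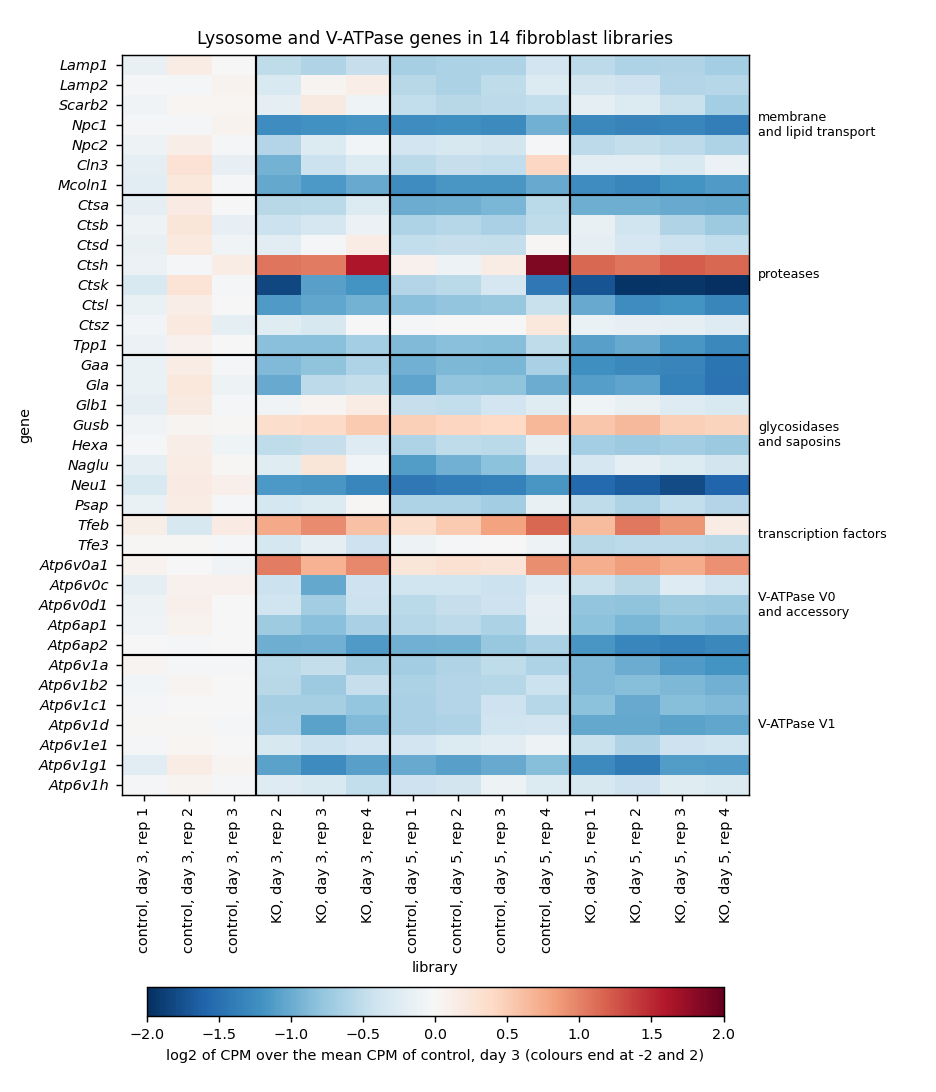
Heat map of the 37 genes (rows, grouped by role) in the 14 libraries (columns, grouped by genotype and day). Colour gives the log2 of a library's CPM over the mean CPM of the day 3 controls, blue for lower and red for higher, and ends at -2 and 2. Most rows are blue in all 3 other groups, Gusb, Tfeb and Atp6v0a1 are red, Ctsh is red in KO, and day 5 control replicate 4 differs from its neighbours in Ctsh, Atp6v0a1 and Cln3.

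Levels per kilobase of gene length differed widely among the members, which matters for reading CPM between genes. Averaged over the 4 group means, cathepsin D, Ctsd, was highest at 598 CPM per kilobase, followed by Lamp1 (525), Psap (347) and Ctsl (343). Tfeb was lowest at 1.29 CPM per kilobase, below Cln3 at 2.90, whereas Tfe3 stood at 18.2.

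Among membrane proteins, the cholesterol exporter and the calcium channel of the lysosome were lower in KO at day 3 by more than 2-fold. Of the 7 genes, 3 were lower and 0 higher (median -0.53). That is 42.9% called, below the 50.9% of all tested genes, of which 26.2% were lower and 24.6% higher. Npc1, which moves cholesterol out of lysosomes, stood at 161, 163 and 173 CPM in day 3 controls and at 70.2, 71.4 and 73.2 CPM in day 3 KO. In day 5 controls it stood at 69.8, 70.9, 68.8 and 84.9 CPM and in day 5 KO at 68.1, 65.3, 67.2 and 63.3 CPM. Thus the day 3 controls alone were high, and the other 3 groups lay close together. The log2 fold change at day 3 was -1.21 ± 0.080 (adjusted p = 1.21e-07), or 43.3% of the control mean. At day 5 it was -0.16 ± 0.068 (adjusted p = 0.0622), with KO wholly below control.

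Mcoln1, the lysosomal calcium channel TRPML1, had 67.7, 92.4 and 78.3 CPM in day 3 controls and 39.1, 35.7 and 39.6 CPM in day 3 KO. At day 5 its levels were 33.6, 35.3, 35.4 and 39.4 CPM in control and 33.7, 32.0, 34.6 and 36.2 CPM in KO. Control and KO did not overlap at day 3 and overlapped at day 5. Its log2 fold changes were -1.05 ± 0.105 at day 3 (adjusted p = 3.02e-06) and -0.07 ± 0.089 at day 5 (adjusted p = 0.503).

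Lamp1, an abundant glycoprotein that lines the lysosomal membrane, was at 1408, 1730.2 and 1559 CPM in day 3 controls and at 1096, 1033 and 1134 CPM in day 3 KO (-0.53 ± 0.102, adjusted p = 0.000733). Its day 5 levels were 989, 1008, 1026 and 1202 CPM in control and 1089, 1018, 1027 and 982 CPM in KO (-0.04, adjusted p = 0.746). The closely related Lamp2 did not pass the test at either day (-0.03, adjusted p = 0.877, and 0.01, adjusted p = 0.961). In female libraries alone it was called lower at day 3 (-0.29, adjusted p = 0.0373). Scarb2, a lysosomal membrane protein also called LIMP-2, was at -0.04 (adjusted p = 0.783) and 0.13 (adjusted p = 0.267). Npc2, the soluble partner of Npc1, gave -0.29 (adjusted p = 0.0701) and -0.27 (adjusted p = 0.0523). Cln3, a membrane protein mutated in Batten disease, gave -0.59 (adjusted p = 0.0778) at day 3, with all 3 KO libraries below control, and -0.02 (adjusted p = 0.953) at day 5, or 0.27 (adjusted p = 0.175) without control replicate 4. With sex as a covariate the day 3 values of Npc2 (-0.44, adjusted p = 0.00939) and Cln3 (-0.89, adjusted p = 0.00506) passed the test.

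Of the 8 proteases, 4 were lower and 1 higher in KO at day 3 (62.5% called, against 50.9% of all tested genes, 26.2% lower and 24.6% higher; median -0.37). Ctsl, an endopeptidase of wide specificity, was measured at 974, 1163 and 1056 CPM in day 3 controls and at 484, 520.4 and 554 CPM in day 3 KO. At day 5 it was at 593, 615, 630.5 and 785 CPM in control and at 527, 448, 466 and 431 CPM in KO. No KO library reached a control library at either day. The log2 fold changes were -1.04 ± 0.118 (adjusted p = 9e-06) and -0.49 ± 0.101 (adjusted p = 0.00109).

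Tpp1, an aminopeptidase that trims tripeptides, had 348, 401 and 379.9 CPM in day 3 controls, 210.0, 211 and 235 CPM in day 3 KO, 205, 212, 208 and 263 CPM in day 5 controls and 176, 188, 167 and 154 CPM in day 5 KO. It too was lower without overlap at both days (-0.78 ± 0.106, adjusted p = 3.83e-05, and -0.37 ± 0.091, adjusted p = 0.00327). The day 5 call was lost with female libraries only (-0.15, adjusted p = 0.25). Ctsk, the collagen-degrading cathepsin K, was at 57.1, 85.7 and 69.5 CPM in day 3 controls and at 20.1, 33.3 and 31.0 CPM in day 3 KO. The day 5 controls had 47.2, 48.8, 56.1 and 26.2 CPM, replicate 4 being the low one, and day 5 KO had 21.4, 18.3, 18.3 and 15.5 CPM. KO lay at 39.8% of the control mean at day 3 and 41.2% at day 5, the lowest fitted value of the 37 genes at each day (-1.40 ± 0.269, adjusted p = 0.000963, and -1.26 ± 0.225, adjusted p = 0.000513). In osteoclasts, where Ctsk is best known, Dcstamp, Ocstamp and Calcr are characteristic, and each of these 3 stayed under 1 CPM in all libraries. The list of 8 osteoclast markers, led by Itgb3 and Nfatc1, summed to 47.3 to 52.7 CPM in control and 56.7 to 61.8 CPM in KO at day 3. At day 5 it summed to 64.9 to 75.8 CPM in control and 42.0 to 64.0 CPM in KO. Of its 5 tested genes, 1 was higher and 0 lower in KO at day 3. At day 5, 2 were higher and 1 was lower, which was Itgb3 (-0.85, adjusted p = 5.29e-05). The part of these markers in the Ctsk result was not tested.

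The remaining proteases were mixed. Ctsa, a carboxypeptidase that also protects Neu1 and Glb1, was lower at day 3 (-0.45, adjusted p = 0.00744) and at -0.16 at day 5 (adjusted p = 0.233). Ctsh, an aminopeptidase, was higher at day 3 (1.28 ± 0.452, adjusted p = 0.0328), with 41.8, 40.9 and 60.9 CPM in KO above 18.3, 19.2 and 22.0 CPM in control. That call depended on single libraries: it was lost without KO replicate 2 or 4 or any of the 3 day 3 controls (adjusted p from 0.0502 to 0.12), and in the fit that included sex (0.81, adjusted p = 0.0896). At day 5 Ctsh was at 72.4 CPM in control replicate 4 and at 18.5 to 22.0 CPM in the other controls, against 41.7 to 45.7 CPM in KO. The day 5 log2 fold change was 0.38 (adjusted p = 0.408), and without control replicate 4 it was 1.10 (adjusted p = 2.56e-06). Ctsz, a carboxypeptidase, was lower at day 5 (-0.23, adjusted p = 0.0371) and at -0.18 at day 3 (adjusted p = 0.158). Its day 5 call was lost in 8 of 24 alternatives, with values from -0.28 to -0.15 over all 24. Among the 8 were the fits without control replicate 4 (-0.17, adjusted p = 0.0898), control replicate 2 or any 1 of the 4 KO replicates (adjusted p from 0.0512 to 0.0963). The abundant Ctsb and Ctsd, general endopeptidases, were not called, at -0.28 and -0.03 at day 3 (adjusted p = 0.113 and 0.897) and at 0.13 and -0.03 at day 5 (adjusted p = 0.397 and 0.876).

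Enzymes that remove sugars from glycoproteins and glycolipids were mixed as well. Of 8 glycosidase and saposin genes, 4 were lower and 1 higher at day 3 (62.5% called, against 50.9% of all tested genes, 26.2% lower and 24.6% higher; median -0.30). Neu1, the sialidase, was at 56.6, 78.8 and 75.3 CPM in day 3 controls and at 31.8, 31.5 and 28.5 CPM in day 3 KO. Its day 5 levels were 25.9, 26.9, 27.5 and 31.4 CPM in control and 23.9, 22.3, 20.4 and 23.4 CPM in KO. As for Npc1, the day 3 controls stood far above the other groups, and KO and control did not overlap at either day. The log2 fold change was -1.20 ± 0.121 (adjusted p = 3.16e-06) at day 3 and -0.31 ± 0.103 (adjusted p = 0.0192) at day 5. The day 5 call was lost in 4 of 24 alternatives, with values from -0.35 to -0.24 over all 24. Among the 4 were the fits without control replicate 4 (-0.25, adjusted p = 0.0511) or KO replicate 3 (-0.27, adjusted p = 0.0628).

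Gaa, which degrades glycogen in lysosomes, had 424, 514 and 454 CPM in day 3 controls, 252, 266 and 304 CPM in day 3 KO, 238, 250.1, 247 and 295 CPM in day 5 controls and 198, 189.9, 186 and 168 CPM in day 5 KO. KO was wholly below control at both days (-0.76 ± 0.105, adjusted p = 4.66e-05, and -0.47 ± 0.090, adjusted p = 0.000585). Gusb, beta-glucuronidase, went the other way at day 3, with 72.6, 79.2 and 77.3 CPM in control and 97.7, 99.6 and 109.5 CPM in KO (0.42 ± 0.084, adjusted p = 0.000874). At day 5 its levels were 107, 103, 101 and 121 CPM in control and 112, 120.1, 106 and 104 CPM in KO, which overlapped (0.03, adjusted p = 0.735).

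Hexa, the alpha subunit of beta-hexosaminidase, was lower at both days (-0.40, adjusted p = 0.0064, and -0.26, adjusted p = 0.0295). Its day 5 call was lost in 6 of 24 alternatives, with values from -0.35 to -0.15 over all 24. Among the 6 were the fits without control replicate 4 (-0.15, adjusted p = 0.0845) and without KO replicates 2, 3 or 4 (adjusted p from 0.0554 to 0.0663). Gla, alpha-galactosidase A, was lower at day 3 (-0.69, adjusted p = 0.00223) and at -0.33 at day 5 (adjusted p = 0.051). Naglu, which acts on heparan sulfate, was at -0.04 at day 3 (adjusted p = 0.861) and higher at day 5 (0.52, adjusted p = 0.00538), with 46.8 to 52.4 CPM in KO and 27.7 to 44.9 CPM in control. Glb1, beta-galactosidase, and Psap, the saposin precursor, were not called, at 0.04 and -0.19 at day 3 (adjusted p = 0.779 and 0.277) and at 0.20 and -0.05 at day 5 (adjusted p = 0.0739 and 0.752). Glb1 was called at day 5 without control replicate 4 (0.25, adjusted p = 0.0203).

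V-ATPase genes were lower in KO at day 3 with 1 exception. All 7 V1 genes were lower (median -0.56), and among the 5 V0 and accessory genes 4 were lower and 1 higher (median -0.55). Of all tested genes 26.2% were lower and 24.6% higher. The V1 genes summed to 1162, 1207 and 1174 CPM in day 3 controls and to 802, 765 and 749 CPM in day 3 KO, which did not overlap. Atp6v1g1, a stator subunit, was at 118, 152 and 144 CPM in day 3 controls and at 65.3, 57.8 and 65.0 CPM in day 3 KO. At day 5 it stood at 68.6, 64.9, 68.8 and 76.3 CPM in control and at 57.0, 52.1, 63.4 and 62.6 CPM in KO. Its log2 fold changes were -1.13 ± 0.106 (adjusted p = 1.76e-06) and -0.24 ± 0.089 (adjusted p = 0.0322), so the later value was small beside the earlier one. The day 5 call was lost in 6 of 24 alternatives, among them those without control replicate 1, 3 or 4 or KO replicate 1 or 2 (adjusted p from 0.0517 to 0.105).

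Atp6v1c1, which joins the V1 and V0 sectors, gave 129, 132 and 131 CPM in day 3 controls, 82.1, 82.7 and 76.2 CPM in day 3 KO, 83.2, 87.2, 97.8 and 88.1 CPM in day 5 controls and 73.7, 64.9, 72.1 and 70.7 CPM in day 5 KO (-0.71 ± 0.074, adjusted p = 4.21e-06, and -0.34 ± 0.062, adjusted p = 0.000463). The rotor subunit gene Atp6v1d had 118.5, 119 and 113 CPM in day 3 controls, 74.5, 55.9 and 63.1 CPM in day 3 KO, 74.7, 76.2, 88.3 and 89.8 CPM in day 5 controls and 57.7, 57.6, 55.8 and 56.7 CPM in day 5 KO (-0.83 ± 0.097, adjusted p = 1.07e-05, and -0.53 ± 0.082, adjusted p = 0.000117). Both genes were separated between genotypes at each day. The catalytic subunit Atp6v1a (-0.56, adjusted p = 0.000126, and -0.44, adjusted p = 0.000222) and Atp6v1b2, which shares the nucleotide-binding interface (-0.56, adjusted p = 4.41e-05, and -0.34, adjusted p = 0.000666), were lower at both days. So was the stator subunit Atp6v1e1 (-0.37, adjusted p = 0.00135, and -0.22, adjusted p = 0.0135). Its day 5 call was lost in 2 of 24 alternatives, among them the fit without KO replicate 2 (-0.18, adjusted p = 0.052). Atp6v1h, a regulatory subunit, was lower at day 3 (-0.35, adjusted p = 0.00406) and at -0.03 at day 5 (adjusted p = 0.774).

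In the membrane sector, both accessory genes were lower at each day. Atp6ap2, the prorenin receptor, was at 227, 222 and 225 CPM in day 3 controls and at 114, 116 and 103 CPM in day 3 KO. In day 5 cells it was at 116, 117, 132 and 144 CPM in control and at 100.4, 91.0, 88.4 and 92.4 CPM in KO (-1.02 ± 0.088, adjusted p = 8.4e-07, and -0.45 ± 0.075, adjusted p = 0.000204). No KO library overlapped its controls. The other accessory gene, Atp6ap1, had 355, 391 and 375 CPM in day 3 controls and 229, 209 and 239 CPM in day 3 KO, and 251, 261, 240.5 and 331 CPM in day 5 controls against 212, 198, 212 and 204 CPM in day 5 KO (-0.72 ± 0.105, adjusted p = 6.91e-05, and -0.39 ± 0.090, adjusted p = 0.00231).

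Atp6ap1, Atp6ap2, Tfe3, Lamp2 and Gla lie on the X chromosome, and the sexes were unequal. In the 8 female libraries alone Atp6ap2 was at -0.96 (adjusted p = 3.61e-06) at day 3 and -0.42 (adjusted p = 0.00475) at day 5, and Atp6ap1 at -0.68 (adjusted p = 7.31e-05) and -0.35 (adjusted p = 0.0126). Gla was at -0.998 (adjusted p = 0.000101) at day 3 and -0.18 (adjusted p = 0.41) at day 5.

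Atp6v0a1, one of several alternative proton channel subunits of the V0 sector, was the V-ATPase member that rose. It had 67.8, 63.9 and 61.1 CPM in day 3 controls and 130.5, 104 and 125 CPM in day 3 KO (0.91 ± 0.158, adjusted p = 0.000327). At day 5 control replicate 4 was at 123 CPM, the other 3 controls were at 76.1, 79.7 and 76.8 CPM and KO was at 106, 115, 107 and 121 CPM. The day 5 groups therefore overlapped, and the log2 fold change was 0.33 ± 0.133 (adjusted p = 0.0485). Without control replicate 4 it was 0.53 (adjusted p = 2.72e-05), and in female libraries alone, which also lack that library, 0.56, also past the threshold. The call was lost in 17 of 24 alternatives, all of which keep this library (adjusted p from 0.0501 to 0.137). The other V0 genes were Atp6v0d1, a subunit at the rotor, lower at both days (-0.49, adjusted p = 0.00111, and -0.37, adjusted p = 0.0026), and Atp6v0c, the proteolipid ring, lower at day 3 (-0.55, adjusted p = 0.00283) and at -0.04 at day 5 (adjusted p = 0.754).

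**Figure D2:**
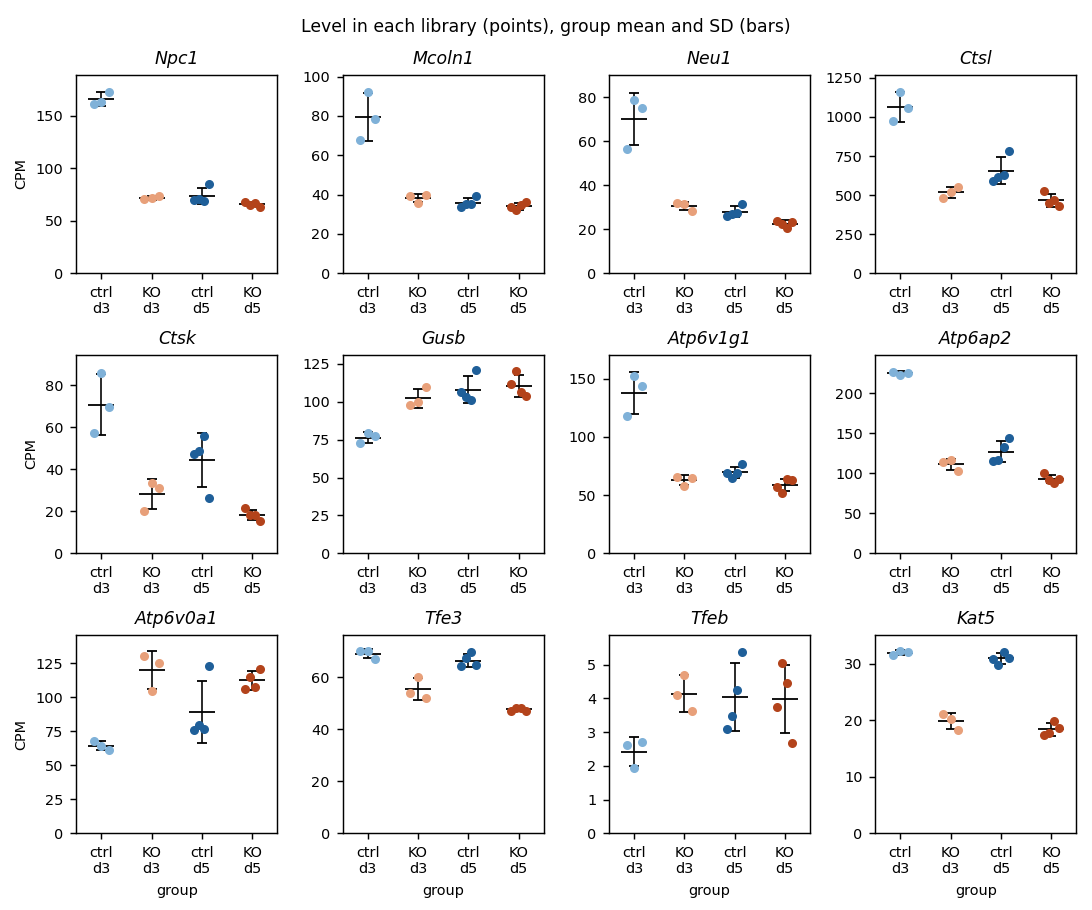
CPM (vertical axes, from 0) of 11 lysosomal genes and Kat5 in each library, by group: ctrl for control, KO for knockout, d3 and d5 for day 3 and day 5. Points are libraries, the horizontal bar is the mean and the whiskers are 1 SD (n = 3 at day 3, n = 4 at day 5). In Npc1, Mcoln1, Neu1 and Atp6v1g1 the day 3 controls stand above the other 3 groups, whereas Tfe3 and Kat5 are split by genotype at both days.

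The transcription factors went in different directions. Tfe3 was at 70.2, 70.0 and 67.1 CPM in day 3 controls, 54.1, 60.1 and 52.0 CPM in day 3 KO, 64.2, 67.3, 69.6 and 64.7 CPM in day 5 controls and 47.2, 48.3, 48.2 and 47.1 CPM in day 5 KO. Within KO, Tfe3 at day 5 lay below day 3 (-0.20, adjusted p = 0.0489), but that call was lost in 20 of 24 alternatives. All 7 KO libraries of Tfe3 lay below all 7 controls. Its log2 fold change was -0.33 ± 0.067 (adjusted p = 0.001) at day 3 and -0.48 ± 0.057 (adjusted p = 1.12e-05) at day 5, and in female libraries alone -0.33 (adjusted p = 0.0125) and -0.47 (adjusted p = 0.00214). Tfeb was scarce, with 2.63, 1.95 and 2.71 CPM in day 3 controls and 4.11, 4.70 and 3.62 CPM in day 3 KO. At day 5 it was at 3.09, 3.48, 4.24 and 5.38 CPM in control and at 3.74, 5.04, 4.47 and 2.69 CPM in KO, which overlapped. The day 3 value of 0.74 ± 0.287 (adjusted p = 0.043) was past the threshold in the fit of all libraries, and was lost in 13 of 24 alternatives, among them those without any 1 of the 6 day 3 libraries (adjusted p from 0.0558 to 0.15). At day 5 it was -0.01 (adjusted p = 0.978).

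At day 5 fewer of these genes passed the test. In KO 17 of 37 were lower and 2 higher, which is 51.4% called against 52.5% of all tested genes. As a total this share is near the background. Of the 19 calls 17 were lower, whereas 26.2% of all genes were lower and 26.3% higher. The median log2 fold change of the members was -0.22, against 0.0211 over all genes. KO lay wholly below control for 19 members and wholly above for 1, whereas 47.4% of all genes were separated, 23.8% below and 23.5% above. The 37 genes summed to 8306 ± 962 CPM in control and 7540 ± 423 CPM in KO (SD, n = 4 each), and these sums overlapped. By role, V-ATPase genes made up 9 of the 17 lower genes (6 of 7 V1 genes and 3 of 5 V0 and accessory genes), with 4 proteases, 3 glycosidases and Tfe3, and 0 of 7 membrane and lipid transport genes. Without control replicate 4 the counts were 14 lower and 4 higher, with a median of -0.15. In that fit the calls of Ctsz, Hexa, Neu1 and Atp6v1g1 were lost, and Gla (-0.36, adjusted p = 0.0448) was called lower and Ctsh and Glb1 higher.

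Across both days, 16 members were lower at day 3 and at day 5 and 1 (Atp6v0a1) was higher at both, against 17.3% and 15.6% of all tested genes. No member changed in opposite directions, as 1.41% of all genes did. The 2 comparisons use different libraries, though several embryos gave a library to each. Another 10 members were called at day 3 alone, 2 at day 5 alone (Ctsz and Naglu), and 8 at neither day: Lamp2, Scarb2, Npc2, Cln3, Ctsb, Ctsd, Glb1 and Psap.

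**Figure D3:**
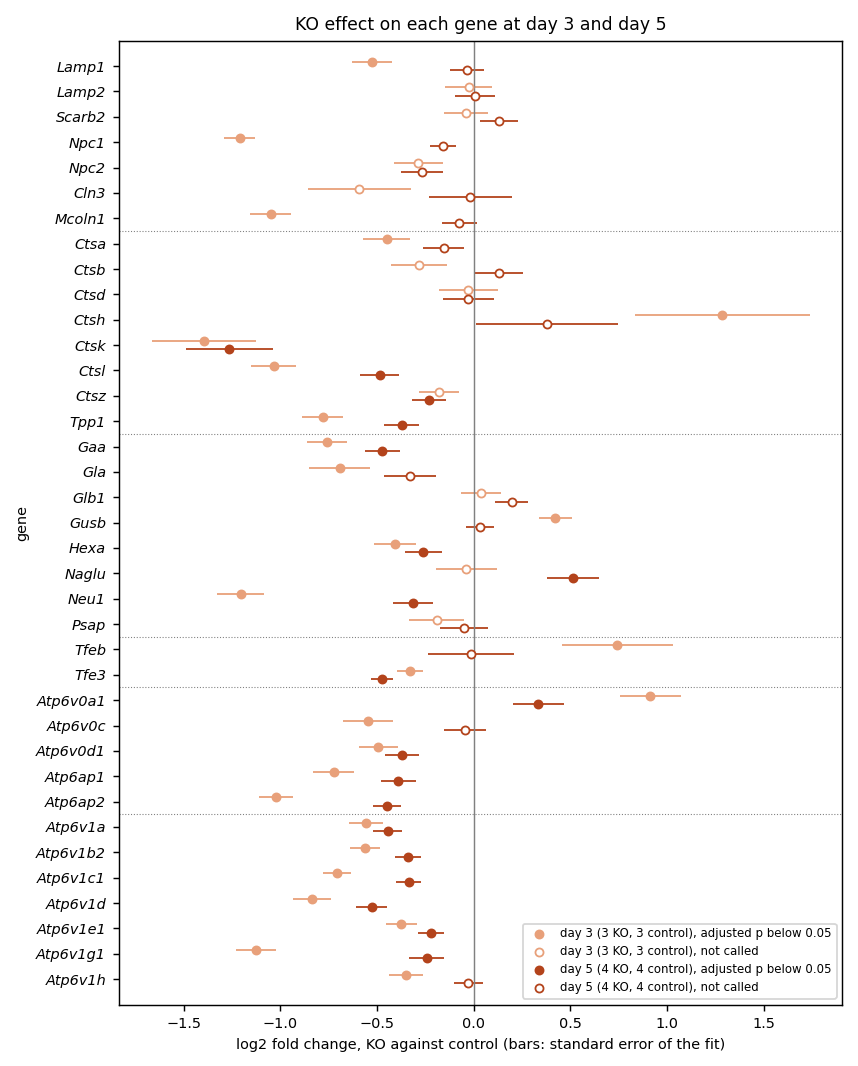
Log2 fold change of KO against control for each of the 37 genes (vertical axis, grouped by role) at day 3 (light) and day 5 (dark), with the standard error of the fit as bars. Filled points had an adjusted p below 0.05. Most day 3 points lie left of 0 and of the day 5 points, down to -1.40 for Ctsk, and the 7 membrane genes at the top have open day 5 points.

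Whether the KO effect itself differed between the days was tested with the interaction. For 9 of 37 genes it did, with 8 values above 0 and 1 below (24.3%, against 14.3% of all genes; 7.16% above 0 and 7.15% below). The median over the members was 0.29, against 0.0002 over all genes. A value above 0 here means that KO was less low relative to control at day 5 than at day 3. The 8 were Npc1 (1.05 ± 0.105, adjusted p = 5.89e-05), Mcoln1 (0.98 ± 0.138, adjusted p = 0.000612), Neu1 (0.89, adjusted p = 0.00255), Atp6v1g1 (0.88, adjusted p = 0.00117), Atp6ap2 (0.57, adjusted p = 0.00515), Ctsl (0.55, adjusted p = 0.0296), Lamp1 (0.49, adjusted p = 0.0274) and Atp6v1c1 (0.37, adjusted p = 0.0209). The one value below 0 was that of Gusb (-0.39, adjusted p = 0.0296).

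The first 5 of these 9 kept their call in all 23 alternative fits. The call of Lamp1 was lost without day 3 control replicate 2 or 3, KO day 3 replicate 3, day 5 control replicate 1, 2 or 3 or KO day 5 replicate 1 (adjusted p from 0.0517 to 0.0768), and that of Ctsl without the same libraries, KO day 3 replicate 2 or KO day 5 replicate 3 (adjusted p from 0.0507 to 0.0806). For Gusb the call was lost without day 3 control replicate 1 or 3, KO day 3 replicate 4 or KO day 5 replicate 3 or 4 (adjusted p from 0.0586 to 0.0769). For Atp6v1c1 it was lost without day 3 control replicate 3 or KO day 3 replicate 4 (adjusted p of 0.0516 and 0.0555). Over all 23 alternatives the calls of Lamp1, Ctsl and Gusb were each lost in 9, and that of Atp6v1c1 in 5. Values there ran from -0.44 to -0.17 for Gusb and from 0.19 to 0.46 for Atp6v1c1. With the embryo as a block, the interaction calls of Lamp1 (adjusted p = 0.062), Gusb (adjusted p = 0.132) and Atp6v1c1 (adjusted p = 0.119) were lost, and Naglu (0.76, adjusted p = 0.0236) and Atp6ap1 (0.46, adjusted p = 0.0477) were called. Without day 5 control replicate 4 there were 16 calls, 14 above 0 and 2 below, and with library totals in place of scaled ones 15, all above 0. Without day 3 control replicate 3 there were 5.

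Lysosomal genes fell between day 3 and day 5 in control, and fewer did in KO. In control 28 of 37 genes were lower and 3 higher at day 5 than at day 3 (83.8%, against 38.3% of all genes; 19.9% lower and 18.3% higher), with a median of -0.51. In KO 10 were lower and 0 higher (27.0%, against 12.0%; 7.06% lower and 4.98% higher), with a median of -0.20. The count in KO was 15 without day 5 control replicate 4, 4 without KO day 5 replicate 3 and 5 without KO day 3 replicate 3 or 4 or KO day 5 replicate 4. The all-gene medians were -0.0021 and 0.0111. Day 5 lay wholly below day 3 for 28 members and wholly above for 3 in control (42.7% of all genes separated, 22.4% below and 20.3% above). In KO it lay below for 16 and above for 0 (26.9% of all genes separated, 13.4% below). These comparisons share their day 3 controls and other libraries with those of genotype, so they are not independent of them and are set side by side.

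Npc1 changed with time by -1.17 ± 0.073 in control (adjusted p = 4.39e-08) and by -0.12 in KO (adjusted p = 0.353). For Mcoln1 the values were -1.15 (adjusted p = 7.42e-07) and -0.17 (adjusted p = 0.299), for Neu1 -1.33 (adjusted p = 6.57e-07) and -0.44 (adjusted p = 0.0214), and for Atp6v1g1 -0.99 (adjusted p = 2.86e-06) and -0.10 (adjusted p = 0.567). All 7 V1 genes were lower at day 5 in control, and 2 of 7 in KO (Atp6v1a at -0.49, adjusted p = 0.00133, and Atp6v1b2 at -0.33, adjusted p = 0.00783). The 3 genes that were higher at day 5 in control were Gusb (0.50, adjusted p = 0.000176), Tfeb (0.74, adjusted p = 0.0391) and Atp6v0a1 (0.47, adjusted p = 0.0211). These 3 were also among the 4 higher in KO at day 3, a comparison that uses the same day 3 controls. For time in control, the Tfeb call was lost in 11 of 24 alternatives and the Atp6v0a1 call in 4 of 24. Day 5 control replicate 4 was at 123 CPM for Atp6v0a1, and the other day 5 controls at 76.1 to 79.7 CPM. In KO the lowest value was that of Gaa (-0.56, adjusted p = 0.0018). The call of Atp6v1a alone among the 10 was kept in all 24 alternatives.

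A wider list of 93 other lysosomal and V-ATPase genes, of which 88 were tested, was more evenly split. At day 3, 30 were lower and 25 higher (62.5% called, 34.1% lower and 28.4% higher, median -0.15). At day 5, 18 were lower and 34 higher (59.1% called, 20.5% lower and 38.6% higher, median 0.17). Of all tested genes 50.9% were called at day 3 (26.2% lower, 24.6% higher) and 52.5% at day 5 (26.2% lower, 26.3% higher). The interaction in the wider list was above 0 for 22 and below for 2 (median 0.20), which is 25.0% and 2.27%. Among all genes these shares were 7.16% and 7.15%. Without day 5 control replicate 4 the day 5 counts were 16 lower and 41 higher. At day 5 more genes of this list were thus higher than lower, whereas 17 of the 37 were lower and 2 higher. The all-gene shares given here also stand beside the counts of the smaller groups below.

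Genes that tether mTORC1 to lysosomes and regulate TFEB and TFE3 were mostly lower at day 3: of 13 tested of 14, 8 were lower and 1 higher, and at day 5, 5 and 1. Rragd, a Rag GTPase and a target of TFEB and TFE3, was at 37.7, 53.0 and 54.0 CPM in day 3 controls, 12.4, 9.86 and 10.6 CPM in day 3 KO, 7.40, 7.79, 8.64 and 12.5 CPM in day 5 controls and 8.50, 7.74, 7.87 and 7.58 CPM in day 5 KO. As for Npc1, the day 3 controls alone were high (-2.10 ± 0.19, adjusted p = 1.32e-06, at day 3, -0.19, adjusted p = 0.343, at day 5, interaction 1.91, adjusted p = 0.000351). Flcn, folliculin, which acts on the Rag GTPases, was lower at both days (-1.28 ± 0.072, adjusted p = 3.35e-08, and -0.49, adjusted p = 1.47e-05), and Rragc likewise (-0.68, adjusted p = 1.56e-05, and -0.36, adjusted p = 0.000712).

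Other V-ATPase subunits were mixed. Of 9 tested of 13, 4 were higher and 3 lower at day 3, and 4 and 2 at day 5. Atp6v0b, of the proteolipid ring, was lower (-0.89, adjusted p = 1.69e-05, and -0.25, adjusted p = 0.0336), Atp6v0e2 was higher (0.73, adjusted p = 0.00349, and 1.65, adjusted p = 1.27e-06), and Atp6v0a4, an isoform known from kidney, rose from 0.398 to 8.09 CPM at day 3 (4.32 ± 0.644, adjusted p = 0.000104). At day 5 Atp6v0a4 was at 1.80 CPM in control and 3.83 CPM in KO (1.08, adjusted p = 0.0538). Of 7 genes for pump assembly, 4 were higher at both days. They included Dmxl2 (0.84, adjusted p = 0.00176, and 0.97, adjusted p = 0.000139) and Rogdi (1.08, adjusted p = 0.000211, and 0.65, adjusted p = 0.0015), which join V1 to V0. Tmem199, which helps to build V0, was lower at day 3 (-0.81, adjusted p = 0.000384).

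Of 32 other hydrolases, 9 were higher and 8 lower at day 3, and 16 higher and 6 lower at day 5. Siae, a sialic acid esterase, was higher at both (1.05, adjusted p = 9.51e-06, and 1.29, adjusted p = 3.43e-07). Of 18 other membrane proteins 8 were lower and 4 higher at day 3, and 4 and 6 at day 5. Among them Laptm4b was lower (-0.91, adjusted p = 3.03e-05, and -0.57, adjusted p = 0.000341), and the potassium and proton channel gene Tmem175 was higher (0.84, adjusted p = 6.42e-05, and 0.83, adjusted p = 1.33e-05).

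Of 9 genes that sort hydrolases to lysosomes, 3 were higher and 2 lower at day 3, and 3 and 1 at day 5. Cln8, which carries new enzymes out of the endoplasmic reticulum, was lower at day 3 (-0.79, adjusted p = 1.05e-06) and at -0.01 at day 5 (adjusted p = 0.861). Sort1, sortilin, was higher at both days (0.80, adjusted p = 0.000375, and 0.80, adjusted p = 8.46e-05). Gnptg, a subunit of the enzyme that starts the mannose 6-phosphate tag, was at 0.37 at day 3 (adjusted p = 0.081) and higher at day 5 (1.17, adjusted p = 1.47e-05).

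**Figure D4:**
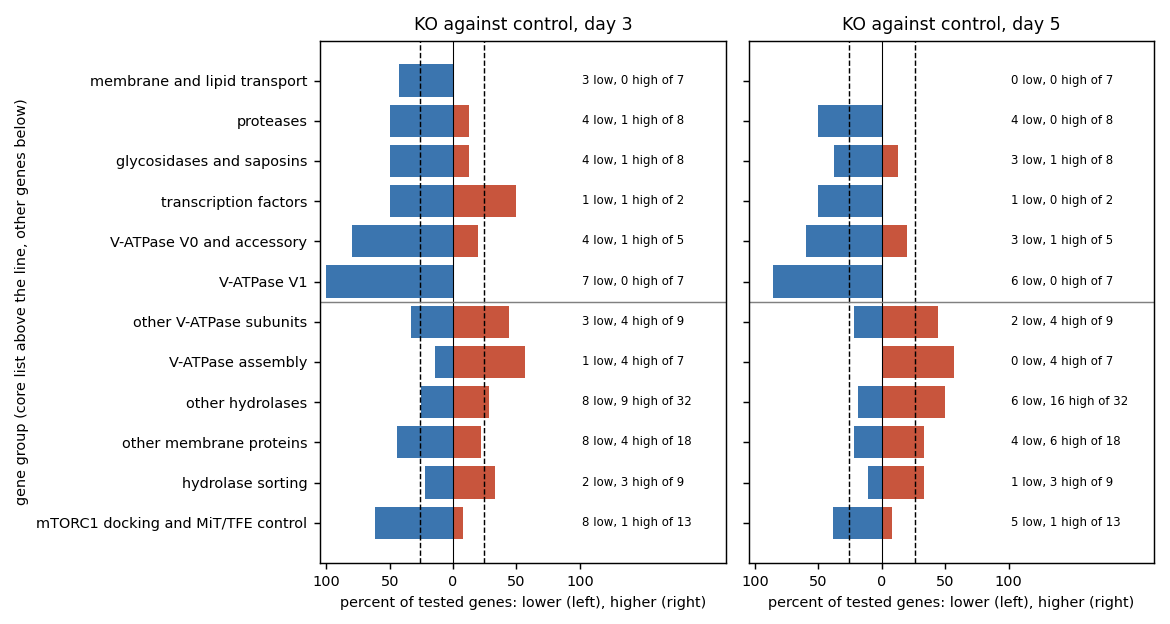
Percent of the tested genes of each group called lower (blue, left) or higher (red, right) in KO at day 3 and day 5, with the counts beside the bars. Dashed lines mark the percent of all 14327 tested genes called lower and higher (26.2 and 24.6 at day 3, 26.2 and 26.3 at day 5). All 7 V1 genes of the 37 are lower at day 3 and 6 at day 5, whereas 16 of 32 other hydrolase genes are higher at day 5.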

How the data were processed

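Per the labels' protocols, libraries were made with a stranded mRNA kit and sequenced as read pairs on a NextSeq. The deposited files hold counts per gene, which the authors made with featureCounts on mm10, per the submitters' processing notes; of aligner, annotation and strand setting nothing is said in the sources used here. Each file has 27179 lines, of which 909 lack a gene identifier (0.194 to 0.315% of counts) and were left out. Of 26270 identifiers, 25275 had a symbol by Entrez number. Xist, Tsix and Y-linked genes were left out.

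Counts were fitted with edgeR 4.0.16 (R 4.3.3): low counts were removed by filterByExpr, libraries scaled by TMM, the 4 group means fitted on all 14 libraries with the robust quasi-likelihood method and p-values adjusted by Benjamini-Hochberg over 14327 genes, with a threshold of 0.05. CPM values use TMM-scaled library sizes. A value after ± is the SE of the fit unless SD is named. The scripts were tested on simulated data. Alternatives were other scalings, no filter, only the groups compared, each library left out, day 3 control replicates 1 and 2 summed, sex as covariate, female libraries, replicate and embryo blocks, limma 3.58.1 (voom, embryo as random effect) and DESeq2 1.42.0. Members, lists (other lysosomal genes; fibroblast, macrophage, osteoclast, cartilage, epithelial and endothelial markers) and tests were chosen with earlier results of these data known. All members are named, as are other lysosomal genes that the rule for named genes selects; some of these are not reported here.

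Same-embryo libraries pair the days within a genotype. Their deviations from the group means correlated at -0.0229 to 0.204. No embryo pairs the genotypes. Control and KO libraries of the same day and replicate number, from different embryos, correlated at -0.166 to 0.428. Pairs of libraries of 1 group all differed beyond counting noise (chi-square per degree of freedom 3.17 to 74.5), so none was merged.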

Additional observations from a re-analysis of the deposited data

Results flagged for a closer look

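Day 5 control replicate 4 lay apart from the other 3 day 5 controls for 11 of 38 genes (the 37 and Kat5), by Dixon's criterion for 4 values, which chance passes in about 1 of 20 sets. Its levels were 84.9 CPM for Npc1, 447 CPM for Npc2, 11.9 CPM for Cln3, 300.1 CPM for Ctsa, 1341 CPM for Ctsd, 72.4 CPM for Ctsh, 166 CPM for Ctsz, 263 CPM for Tpp1, 1051 CPM for Psap, 123 CPM for Atp6v0a1 and 49.96 CPM for Atp6v0c. No day 5 KO library and no other day 5 control was apart by this criterion. It is the library with the high cartilage markers.

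The KO effect differed between day 5 and day 3, by the interaction of edgeR's quasi-likelihood test, for 9 genes. The differences (log2, day 5 minus day 3) were 1.05 for Npc1, 0.98 for Mcoln1, 0.89 for Neu1, 0.88 for Atp6v1g1, 0.57 for Atp6ap2, 0.55 for Ctsl, 0.49 for Lamp1, 0.37 for Atp6v1c1 and -0.39 for Gusb.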

How the results depend on the processing

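Of the 27 genes called at day 3, 24 kept their call in all 24 alternatives. So did 12 of 19 at day 5, 5 of 9 for the interaction (23 alternatives), 1 of 10 for time in KO and 25 of 31 for time in control, and no called member changed sign. With single libraries left out, the counts ran from 25 to 29 at day 3, 15 to 20 at day 5, 5 (without day 3 control replicate 3) to 16 (without day 5 control replicate 4) for the interaction, 4 (without KO day 5 replicate 3) to 15 for time in KO and 26 to 33 for time in control. Library totals gave 15 for the interaction and 5 for time in KO, and moved the all-gene median of the latter to 0.126. Female libraries alone gave 1 for time in KO, and Ctsf in control changed to -0.41 (adjusted p = 0.0339). With the replicate number as a block the counts were 27 at day 3 and 20 at day 5. With the embryo as a block they were 8 for the interaction, 10 for time in KO and 27 for time in control. The causes were not tested. KO day 3 replicate 3 has the lowest depth, 2187168 counts.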
